A study of Mus musculus with 9 samples.

Results

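The genes described here are 31 transcripts by which B cells and antigen-presenting cells are usually recognised, measured in RNA libraries of mouse splenic CD4+ T cells. They were chosen by name, with earlier results of these data known. They were matched to Ensembl identifiers with a GRCm38 annotation, and make up 31 of the 55573 gene identifiers counted. All 31 were among the 13328 genes with enough counts to be tested. By role they are 14 genes of the B cell receptor and B cell surface, 6 of the signalling below that receptor, 4 transcription regulators of the B lineage, and 7 of MHC class II presentation.

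The study sequenced total RNA from spleens of B6 mice in 3 groups of 3 libraries. Cells of the first group were activated for 3 hours with plate-bound antibodies against CD3 and CD28 at 39 °C, those of the second in the same way at 37 °C, and those of the third, called naive, were harvested without activation. These antibodies engage the T cell receptor complex and a costimulatory receptor, and 39 °C is a fever temperature. The sources give CD4+ T cells as the material but whole spleen cells as the input of the culture, do not give the order of isolation and activation, and do not record time in medium for the naive cells. Activation and any loss of other cells on the plate therefore cannot be told apart in the contrasts with naive cells. Whether the 3 libraries of a group are 3 mice, 3 cultures or 3 preparations of the same RNA is not given either, so the p-values measure the spread between these libraries, which may be technical. Age and sex of the mice are not given in the sources used here.

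B cells carry membrane immunoglobulin with the signalling chains CD79A and CD79B, and their identity is held by regulators such as PAX5 and EBF1. MHC class II molecules present peptides to CD4+ T cells. They are assembled with the invariant chain CD74, loaded with the help of H2-DM, and transcribed under the coactivator CIITA in B cells, dendritic cells and macrophages. Resting mouse T cells make little class II of their own, so these transcripts are commonly read as a measure of other cells in a T cell preparation. In bulk RNA, however, fewer cells of a type and less of an RNA per cell cannot be told apart.

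The libraries held 12647692 to 17605549 counts each. Levels are given as CPM, each count taken relative to its library's total after TMM scaling, and between genes as CPM per kilobase of exon. Il2, the T cell growth factor gene used to check the activation, averaged 37.0 ± 3.0 CPM at 39 °C, 32.1 ± 2.1 CPM at 37 °C and 0.357 ± 0.17 CPM in naive cells (SD, n = 3). The T cell marker Cd3e averaged 66.3, 62.8 and 67.5 CPM per kilobase at 39 °C, at 37 °C and in naive cells, and Cd4 averaged 152, 152 and 198 CPM per kilobase in the same groups, so genes of the labelled cell type were well expressed in every group. Cd8a, a chain of the CD8 coreceptor, averaged 1.59, 1.38 and 5.57 CPM in these groups. The naive libraries differed among themselves by a median coefficient of variation of 14.5% over the 31 genes and of 13.1% over all genes tested.

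Most of the 31 transcripts were lower in activated than in naive cells, at either temperature. At 39 °C 26 were lower than in naive cells and 3 were higher, against a background of 29.8% of all genes lower and 29.2% higher (edgeR quasi-likelihood F test, adjusted p under 0.05 over all genes). At 37 °C 27 were lower and 3 were higher, against 31.8% of all genes lower and 30.9% higher. The share of members that were lower was thus 83.9% at 39 °C and 87.1% at 37 °C, while the share that were higher, 9.68% at either temperature, was below the background. The largest edgeR adjusted p among the called members was 0.00583 at 39 °C, for Ebf1, and 0.0113 at 37 °C, for Spib. The 3 that rose were Cd83, Pou2af1 and Fcer2a in both contrasts, which share the same naive libraries. The median log2 fold change of the 31 genes was -1.34 at 39 °C and -1.26 at 37 °C against naive, where the median of all genes tested was -0.0027 and -0.0025. Every activated library lay below every naive library for 27 of the 31 genes at 39 °C and for 27 at 37 °C, a separation that 30.5% of all genes showed at 39 °C and 32.7% at 37 °C. Every activated library lay above every naive one for the 3 genes that rose, as for 30.8% of all genes at 39 °C and 32.7% at 37 °C.

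Summed over the 31 genes, the libraries held 902, 851 and 844 CPM at 39 °C, 870, 832 and 870 CPM at 37 °C, and 1900, 1552 and 1741 CPM in naive cells. The activated libraries were alike and the naive ones about 2.00 times (against 39 °C) and 2.02 times (against 37 °C) as high. The sum hides opposite movements. Ighm made up 19.3% ± 0.089 of it at 39 °C and 17.2% ± 0.097 at 37 °C, against 36.5% ± 0.53 in naive cells (SD, n = 3). Cd83 held 10.8% at 39 °C, 11.4% at 37 °C and 1.22% in naive cells, and Pou2af1 held 11.2% at 39 °C, 11.7% at 37 °C and 1.64% in naive cells.

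**Figure D1:**
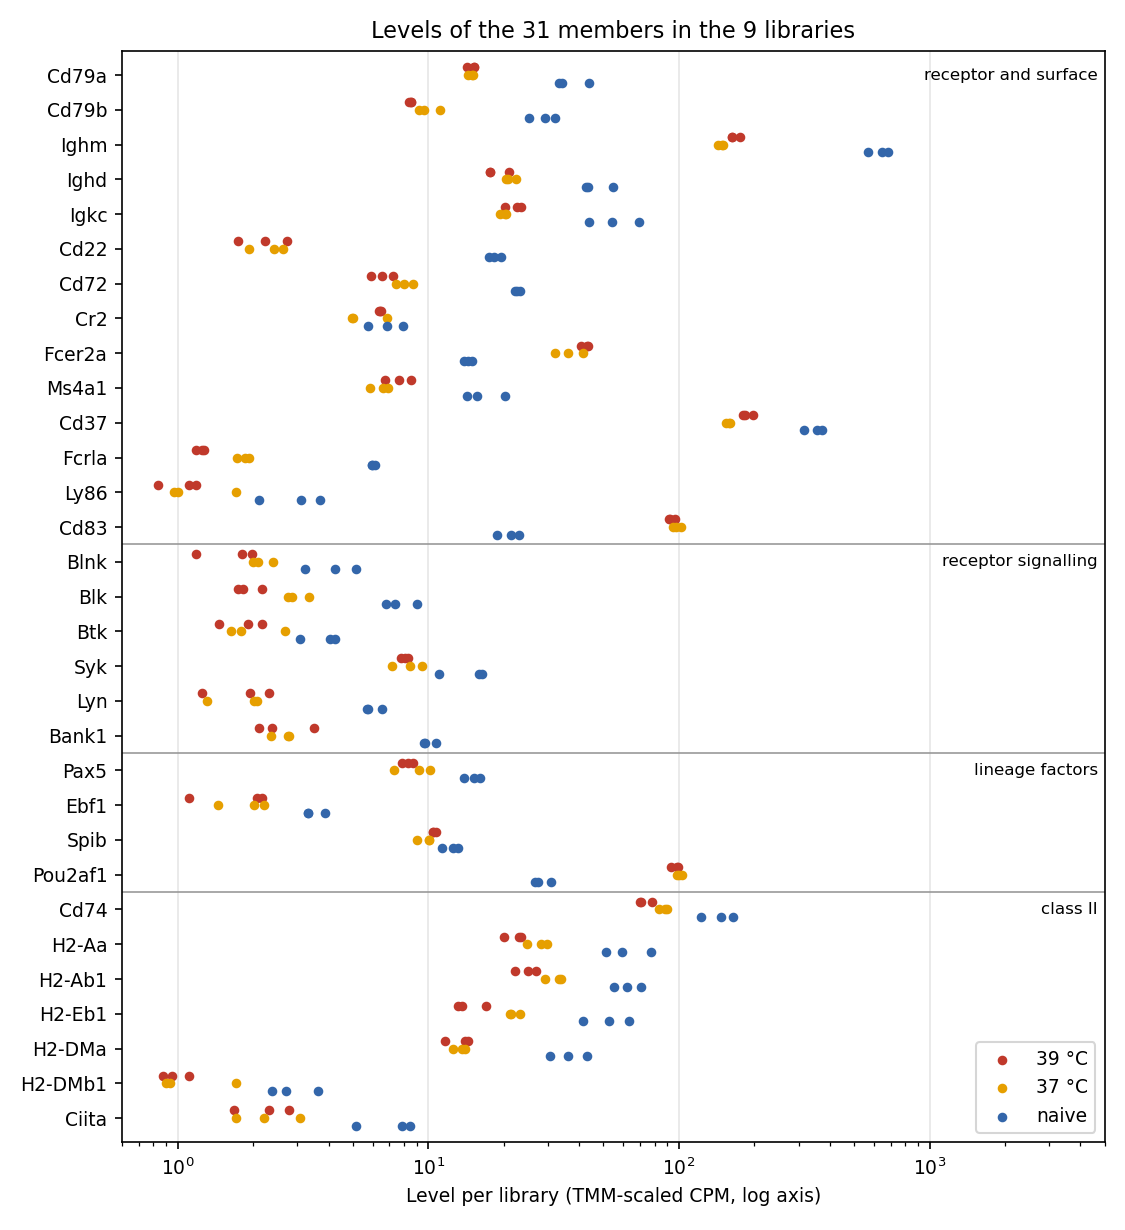
Level of each of the 31 genes in each of the 9 libraries (TMM-scaled CPM, log axis), 1 point per library, grouped by role from top to bottom. For 27 genes the 3 libraries at 39 °C and the 3 at 37 °C all lie left of the naive libraries, for Cd83, Pou2af1 and Fcer2a they lie right of them, and for Cr2 the groups overlap.

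Among receptor genes, the immunoglobulin heavy chain constant region gene Ighm was the most abundant member per kilobase in every group, with 88.4 CPM per kilobase at 39 °C, 78.1 at 37 °C and 335 in naive cells. Its level was 174, 163 and 163 CPM at 39 °C, 149, 144 and 150 CPM at 37 °C, and 683, 567 and 644 CPM in naive cells. No library at 39 °C or 37 °C came near the naive ones. The log2 fold change against naive was -1.92 ± 0.08 at 39 °C (± is the standard error here and beside every fold change; edgeR adjusted p = 1.75e-09) and -2.10 ± 0.08 at 37 °C (adjusted p = 8.4e-10). Ighm (ENSMUSG00000076617) lies on chromosome 12 at 113418558 to 113422730, minus strand, in GRCm38, next to Ighd at 113406604 to 113416324, which encodes the constant region of IgD.

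The other receptor chains fell less than Ighm. Igkc, the kappa light chain constant region, had 23.4, 22.6 and 20.3 CPM at 39 °C, 20.4, 19.3 and 20.2 CPM at 37 °C, and 69.6, 43.7 and 54.2 CPM in naive cells, with log2 fold changes of -1.34 ± 0.14 at 39 °C and -1.48 ± 0.14 at 37 °C. Ighd had 17.7, 20.9 and 17.7 CPM at 39 °C, 20.8, 20.4 and 22.4 CPM at 37 °C, and 54.7, 42.5 and 43.4 CPM in naive cells, with log2 fold changes of -1.32 ± 0.11 and -1.14 ± 0.11 at 39 °C and 37 °C. For both genes all activated libraries lay below all naive ones. The ratio of Ighm to Ighd CPM was 8.95 ± 1.0 at 39 °C, 6.96 ± 0.23 at 37 °C and 13.6 ± 1.2 in naive cells, and that of Ighm to Igkc was 7.56 ± 0.41, 7.38 ± 0.077 and 11.6 ± 1.6 in the same groups (SD, n = 3). Neither ratio in an activated library reached the lowest naive value. These constant region counts do not separate membrane from secreted transcripts, or transcripts of B cells from those of other cells.

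Cd79a and Cd79b encode the chains that carry the signal of membrane immunoglobulin. Cd79a had 14.3, 15.2 and 15.2 CPM at 39 °C, 14.4, 14.9 and 15.1 CPM at 37 °C, and 43.7, 33.2 and 34.2 CPM in naive cells. Its activated libraries fell within 1 CPM of each other, and its log2 fold change was -1.31 ± 0.11 at 39 °C (edgeR adjusted p = 7.7e-07) and -1.32 ± 0.11 at 37 °C (adjusted p = 6.79e-07). Cd79b had 8.35, 8.50 and 8.57 CPM at 39 °C, 9.22, 9.58 and 11.2 CPM at 37 °C, and 32.1, 25.3 and 29.2 CPM in naive cells. It fell by 1.77 ± 0.11 on the log2 scale at 39 °C and by 1.53 ± 0.11 at 37 °C. Per kilobase Cd79a reached 10.2 CPM at 39 °C, the 64.0th percentile of the genes tested, and 25.4 CPM in naive cells, the 85.4th percentile.

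The largest fall among the 31 was that of Cd22, which encodes an inhibitory lectin receptor for sialic acid on B cells. It had 2.74, 1.75 and 2.23 CPM at 39 °C, 2.43, 1.93 and 2.64 CPM at 37 °C, and 17.4, 19.4 and 18.3 CPM in naive cells. Cd22 was 8.07-fold lower at 39 °C (log2 fold change -3.01 ± 0.16) and 7.87-fold lower at 37 °C (-2.98 ± 0.16; edgeR adjusted p = 1.41e-08). Its ratio to Cd79a was 0.151 at 39 °C, 0.158 at 37 °C and 0.506 in naive cells, so these genes did not fall in a fixed proportion. Of the 5042 exon bases of Cd22, 479 are shared with Gm29439 on the opposite strand. By contrast the ratio of Ms4a1 (the gene of CD20) to Cd79a was 0.513, 0.437 and 0.449 in the same groups. Ms4a1 itself had 8.53, 7.63 and 6.69 CPM at 39 °C, 5.86, 6.62 and 6.91 CPM at 37 °C, and 20.2, 14.2 and 15.6 CPM in naive cells. Its activated libraries all lay below the naive ones, with log2 fold changes of -1.13 ± 0.15 at 39 °C and -1.37 ± 0.15 at 37 °C.

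The other genes of this group that were called lower were Fcrla, Cd72, Cd37 and Ly86. Fcrla, an intracellular Fc receptor-like protein of B cells, had 1.25, 1.27 and 1.18 CPM at 39 °C, 1.93, 1.72 and 1.86 CPM at 37 °C, and 6.12, 5.96 and 5.98 CPM in naive cells, with log2 fold changes of -2.28 ± 0.17 at 39 °C and -1.71 ± 0.16 at 37 °C. Cd72, an inhibitory coreceptor, fell by 1.79 ± 0.11 on the log2 scale at 39 °C and by 1.49 ± 0.10 at 37 °C, although 1423 of its 3422 exon bases are shared with Tesk1 on the opposite strand. The tetraspanin gene Cd37, which T cells also express, had 197, 181 and 184 CPM at 39 °C, 160, 154 and 159 CPM at 37 °C, and 371, 317 and 355 CPM in naive cells, and fell by 0.89 ± 0.073 on the log2 scale at 39 °C and by 1.14 ± 0.074 at 37 °C. Ly86, which encodes the MD-1 partner of the receptor RP105, was at the low end of detection, with 0.836 to 1.18 CPM at 39 °C, 0.965 to 1.71 CPM at 37 °C and 2.10 to 3.71 CPM in naive cells. It was called lower at either temperature, with a log2 fold change of -1.50 ± 0.30 at 39 °C and -1.29 ± 0.29 at 37 °C.

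Cr2, the complement receptor CD21 of mature B cells, was the surface gene without a call. It had 6.42, 6.36 and 6.48 CPM at 39 °C, 5.00, 6.82 and 4.97 CPM at 37 °C, and 6.87, 7.92 and 5.75 CPM in naive cells. The 3 groups overlapped, with log2 fold changes of -0.09 ± 0.16 at 39 °C (edgeR adjusted p = 0.664) and -0.28 ± 0.17 at 37 °C (adjusted p = 0.158). Without the second library at 37 °C, the fold change at 37 °C was -0.45 with an edgeR adjusted p of 0.045, past the threshold.

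Fcer2a, which encodes the low-affinity IgE receptor CD23 of B cells, went the other way. Its level was 43.0, 40.8 and 43.4 CPM at 39 °C, 41.3, 32.0 and 36.2 CPM at 37 °C, and 13.9, 14.4 and 15 CPM in naive cells. Each activated library was more than 2 times as high as each naive one. The log2 fold change was 1.55 ± 0.098 at 39 °C (edgeR adjusted p = 6.8e-08) and 1.34 ± 0.099 at 37 °C (adjusted p = 2.45e-07). CD21 and CD23 mark follicular B cells together, and the ratio of Fcer2a to Cr2 was 6.60 ± 0.17 at 39 °C, 6.74 ± 1.8 at 37 °C and 2.15 ± 0.41 in naive cells (SD, n = 3).

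Cd83, a surface protein of activated B cells, dendritic cells and also activated T cells, rose most of the 31. It had 96.9, 92.3 and 91.0 CPM at 39 °C, 102, 94.9 and 97.2 CPM at 37 °C, and 23.1, 18.8 and 21.3 CPM in naive cells, with log2 fold changes of 2.15 ± 0.081 at 39 °C (edgeR adjusted p = 7.95e-10) and 2.21 ± 0.081 at 37 °C (adjusted p = 6.09e-10). Pou2af1 encodes OCA-B, the coactivator that binds octamer factors on immunoglobulin promoters and that stimulated T cells also make. It had 99.5, 92.6 and 98.2 CPM at 39 °C, 100, 98.3 and 103 CPM at 37 °C, and 30.9, 27.5 and 26.7 CPM in naive cells, with log2 fold changes of 1.77 ± 0.073 and 1.82 ± 0.073 at 39 °C and 37 °C. Neither gene's activated libraries overlapped the naive ones, and within each temperature the libraries lay close together. Per kilobase, Cd83 stood at the 89.2th percentile of the genes tested at 39 °C and at the 59.2th in naive cells.

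All 6 genes of receptor signalling were lower in activated cells than in naive cells, at either temperature. Blk, a Src family kinase of B cells, had 2.18, 1.83 and 1.74 CPM at 39 °C, 3.36, 2.76 and 2.87 CPM at 37 °C, and 9.01, 7.36 and 6.77 CPM in naive cells, with log2 fold changes of -1.99 ± 0.18 at 39 °C and -1.36 ± 0.17 at 37 °C. The scaffold gene Bank1 fell by 1.92 ± 0.18 on the log2 scale at 39 °C and by 1.92 ± 0.18 at 37 °C, and the Src family kinase gene Lyn by 1.73 ± 0.23 and 1.74 ± 0.23. The adaptor gene Blnk fell by 1.34 ± 0.24 at 39 °C and by 0.95 ± 0.23 at 37 °C, and the kinase gene Btk by 1.03 ± 0.24 and 0.89 ± 0.24. The smallest fall was that of Syk, a kinase that relays signals from immune receptors in several cell types, with 8.28, 7.79 and 8.08 CPM at 39 °C, 7.14, 9.44 and 8.46 CPM at 37 °C, and 11, 15.9 and 16.4 CPM in naive cells. The summed level of the 6 genes was 18 ± 1.3 CPM at 39 °C, 20.0 ± 1.3 CPM at 37 °C and 46.1 ± 1.3 CPM in naive cells (SD, n = 3).

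The lineage regulators differed from each other. Pax5, which commits precursors to the B lineage, had 8.28, 7.87 and 8.71 CPM at 39 °C, 7.29, 10.2 and 9.16 CPM at 37 °C, and 13.9, 16.1 and 15.2 CPM in naive cells, and fell by 0.86 ± 0.13 on the log2 scale at 39 °C and by 0.76 ± 0.13 at 37 °C. Ebf1, the other early B lineage factor here, fell by 0.96 ± 0.25 and 0.88 ± 0.25 and was the least abundant member per kilobase in each group. Spib, an Ets family factor of B cells and plasmacytoid dendritic cells, had 10.7, 10.4 and 10.5 CPM at 39 °C, 10.1, 10.1 and 9.01 CPM at 37 °C, and 11.3, 12.5 and 13.2 CPM in naive cells. It was called lower at 37 °C (log2 fold change -0.35 ± 0.10; edgeR adjusted p = 0.0113) and was not called at 39 °C (-0.23 ± 0.10; adjusted p = 0.0687). Either Spib call turned on 1 library: without the third library at 37 °C the adjusted p in edgeR was 0.0543, and without the first naive library the contrast at 39 °C had an adjusted p of 0.0244. With Pou2af1 included, the 4 regulators summed to 117 ± 4.0 CPM at 39 °C, 121 ± 1.7 CPM at 37 °C and 59.3 ± 0.80 CPM in naive cells.

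All 7 class II genes were lower in activated than in naive cells, with a median log2 fold change of -1.49 at 39 °C and -1.26 at 37 °C. Cd74, the invariant chain that guards the groove of new class II molecules, had 78.0, 70.7 and 70.0 CPM at 39 °C, 90.0, 83.2 and 87.9 CPM at 37 °C, and 165, 123 and 147 CPM in naive cells. Its fall was the smallest of the 7, by 0.99 ± 0.098 on the log2 scale at 39 °C and by 0.74 ± 0.097 at 37 °C. H2-Eb1, the beta chain of I-E, had 17.1, 13.2 and 13.6 CPM at 39 °C, 23.1, 21.4 and 21.1 CPM at 37 °C, and 63.2, 41.6 and 52.6 CPM in naive cells. The 3 groups did not overlap, and the log2 fold change against naive was -1.84 ± 0.15 at 39 °C, the largest fall of the 7, and -1.26 ± 0.14 at 37 °C.

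The genes of the I-A molecule lay between these. H2-Aa, its alpha chain, had 23.1, 23.5 and 20.0 CPM at 39 °C, 28.2, 24.7 and 29.9 CPM at 37 °C, and 77.1, 51.2 and 59.4 CPM in naive cells, with log2 fold changes of -1.49 ± 0.14 at 39 °C and -1.18 ± 0.14 at 37 °C. H2-Ab1, its beta chain, had 27.0, 25.0 and 22.2 CPM at 39 °C, 33.8, 29.2 and 33.2 CPM at 37 °C, and 70.3, 55.2 and 62.1 CPM in naive cells, with log2 fold changes of -1.34 ± 0.11 and -0.96 ± 0.10. In both genes the libraries at 39 °C lay below those at 37 °C and those below the naive ones.

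H2-DMa, a chain of the peptide exchange factor H2-DM, had 14.4, 14.1 and 11.6 CPM at 39 °C, 12.5, 13.6 and 14 CPM at 37 °C, and 42.9, 30.6 and 36.3 CPM in naive cells. Its fall was 1.45 ± 0.13 on the log2 scale at either temperature, and 360 of its exon bases are shared with Brd2 on the opposite strand. H2-DMb1, the partner chain, was low, with 0.872 to 1.11 CPM at 39 °C, 0.896 to 1.71 CPM at 37 °C and 2.38 to 3.64 CPM in naive cells, and its near-identical copy H2-DMb2 makes the split of reads between them uncertain. H2-DMb2, which is not among the 31, fell by 2.29 ± 0.17 at 39 °C and by 2.06 ± 0.17 at 37 °C. Ciita, the coactivator that class II transcription requires, had 1.68, 2.30 and 2.79 CPM at 39 °C, 3.07, 2.21 and 1.71 CPM at 37 °C, and 5.16, 8.48 and 7.84 CPM in naive cells, with log2 fold changes of -1.67 ± 0.26 at 39 °C and -1.61 ± 0.26 at 37 °C, and 329 of its 9535 exon bases are shared with Dexi on the opposite strand. In naive cells the first library was the highest for the other 6 class II genes but the lowest for Ciita.

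**Figure D2:**
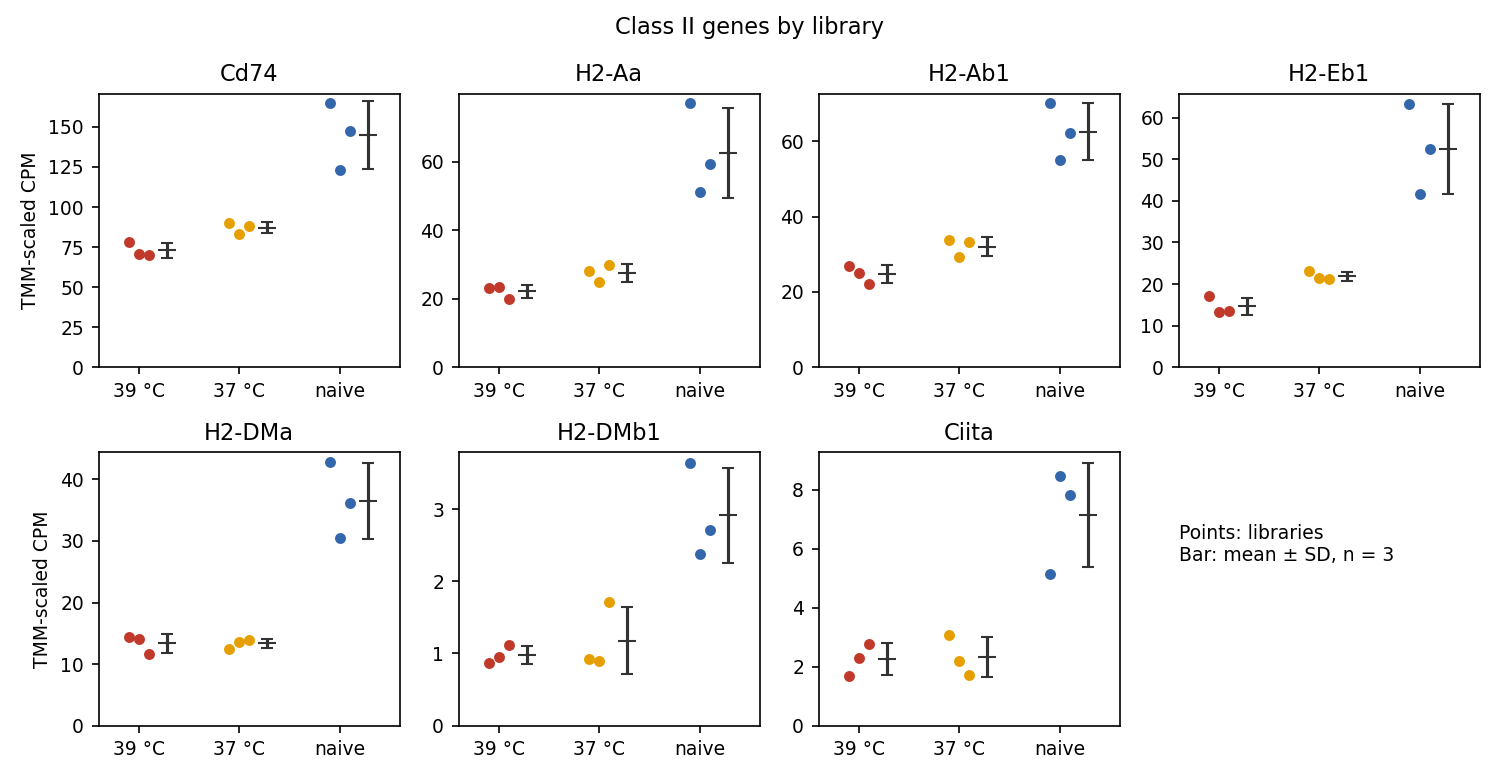
Level of each of the 7 class II genes in each library (TMM-scaled CPM, linear axes from 0 with a scale of their own per gene), points for libraries and bars for mean ± SD (n = 3). H2-Eb1, H2-Ab1, H2-Aa and Cd74 show 3 separate steps with 39 °C lowest, while H2-DMa, H2-DMb1 and Ciita overlap between 39 °C and 37 °C.

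Class II promoters are known for an X box, bound by the RFX complex, and a Y box, an inverted CCAAT bound by NF-Y, on which CIITA docks. The 2 promoters below are shown because H2-Eb1 and H2-Aa are class II chains that were lower in activated than in naive cells, and differ in the letters searched here. Whether these boxes or Ciita had a part in the lower levels was not tested. They are RefSeq sequence of GRCm38.p6, the 130 bases upstream of the annotated start, written 5′ to 3′ on the gene's own strand. Capitals mark the letters AACNGATG of the X1 box and the Y core ATTGG, or CCAAT where that core is on the other strand.
H2-Eb1, chr17:34305737-34305866, plus strand: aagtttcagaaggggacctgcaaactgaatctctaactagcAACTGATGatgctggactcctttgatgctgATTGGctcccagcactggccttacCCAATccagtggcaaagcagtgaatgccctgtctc
H2-Aa, chr17:34287824-34287953, minus strand: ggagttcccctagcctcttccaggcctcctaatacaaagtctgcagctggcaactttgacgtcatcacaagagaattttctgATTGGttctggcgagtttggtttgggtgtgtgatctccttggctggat
In H2-Eb1 the X1 letters stand 89 to 82 bases and the Y core 59 to 55 bases before the start. In H2-Aa the Y core stands 48 to 44 bases before the start and the X1 letters as searched are not in the window. An X box of other letters was not searched for, so its absence is not shown.

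Searched over the 250 bases before the start on both strands, the X1 letters occur in 652 of 32851 RefSeq promoter windows (1.98%) and in those of 2 members, H2-Eb1 and H2-DMb1. The short Y core occurs in 33.8% of all windows, in 10 of the 25 windows that belong to 20 of the 31 genes, and in 4 of the 5 windows of 4 class II genes. The octamer ATGCAAAT, a motif of immunoglobulin promoters, occurs in 1.60% of all windows and among the members in that of Blnk. A match is a description of letters, and no match says nothing about binding.

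Whether fever temperature altered the activated cells is asked by setting 39 °C against 37 °C, and none of the 31 genes passed the test there. In edgeR 0 of 31 had an adjusted p under 0.05, against a background of 0.758% of all genes (0.623% lower and 0.135% higher), and the smallest adjusted p was 0.185, for H2-Eb1. At an unadjusted p under 0.05 there were 9 of 31 genes, 6 lower and 3 higher, against 7.96% of all genes, 4.25% lower and 3.71% higher. With DESeq2 1 member, H2-Eb1, was called lower. The median log2 fold change was -0.068, against 0.0041 over all genes, and 22 of 31 values were below 0, or 71.0%, against 48.9% of all genes. The 3 libraries at 39 °C lay below the 3 at 37 °C for 9 of the genes, or 29.0%, against 10.3% of all genes, and above them for 3, or 9.68%, against 10.7%. The 9 were Cd79b, Cd72, Fcrla, Blnk, Blk, Cd74, H2-Aa, H2-Ab1 and H2-Eb1, and the 3 were Ighm, Cd37 and Spib.

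The class II genes held 4 of these 9. All 7 had a log2 fold change below 0 at 39 °C against 37 °C, with a median of -0.25, and their summed level was 151 ± 11 CPM at 39 °C and 185 ± 8.9 CPM at 37 °C (SD, n = 3). H2-Eb1 differed most, at -0.58 ± 0.15 (unadjusted p = 0.00289 in edgeR), followed by H2-Ab1 at -0.37 ± 0.11 (0.00544), H2-Aa at -0.31 ± 0.14 and Cd74 at -0.25 ± 0.099 (0.0247). H2-DMa was at -0.0003 ± 0.14, with 11.6 to 14.4 CPM at 39 °C and 12.5 to 14 CPM at 37 °C, which overlapped. Ciita was at -0.06 ± 0.30 and H2-DMb1 at -0.25 ± 0.34. H2-DMa, Ciita and H2-DMb1 thus lay within their standard errors of 0, and their sign carries no weight. The ratio of H2-Eb1 to Cd74 was 0.20 at 39 °C, 0.251 at 37 °C and 0.360 in naive cells. H2-Eb1 passed the threshold when a naive library, which enters this comparison only through the shared fit, was left out: without the first its adjusted p in edgeR was 0.0249 and without the second 0.0312. Without the first naive library Cd37 was called higher, at 0.25 with an adjusted p of 0.0419 in edgeR. With genes of any count kept, H2-Eb1 was called (edgeR adjusted p = 0.000138), and in an edgeR fit of the 6 activated libraries alone H2-Eb1 (0.0065), H2-Ab1 (0.036) and Cd74 (0.0325) were called lower and Cd37 (0.0143) higher.

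Outside class II, Blk was lower by 0.64 ± 0.20 on the log2 scale at 39 °C (unadjusted p = 0.00835 in edgeR) and Fcrla by 0.57 ± 0.20, both short of the adjusted threshold. Cd37 was at 0.25 ± 0.073 (unadjusted p = 0.00575), Fcer2a at 0.22 ± 0.092 (0.0364) and Ighm at 0.18 ± 0.078 (0.041), in the direction of higher at 39 °C. Cd79a was at 0.01 ± 0.12, and Cd22 at -0.03 ± 0.20. The ratio of H2-Eb1 to Cd79a was 0.985 at 39 °C, 1.48 at 37 °C and 1.41 in naive cells, and that of Cd74 to Cd79a was 4.90, 5.90 and 3.93. The total of all calls at this comparison, 83 lower and 18 higher, depends on single libraries: leaving out any 1 of the 6 activated libraries left 30 to 43 lower and 7 or 8 higher, leaving out the first naive library gave 202 and 89, and leaving out the second gave 30 higher.

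**Figure D3:**
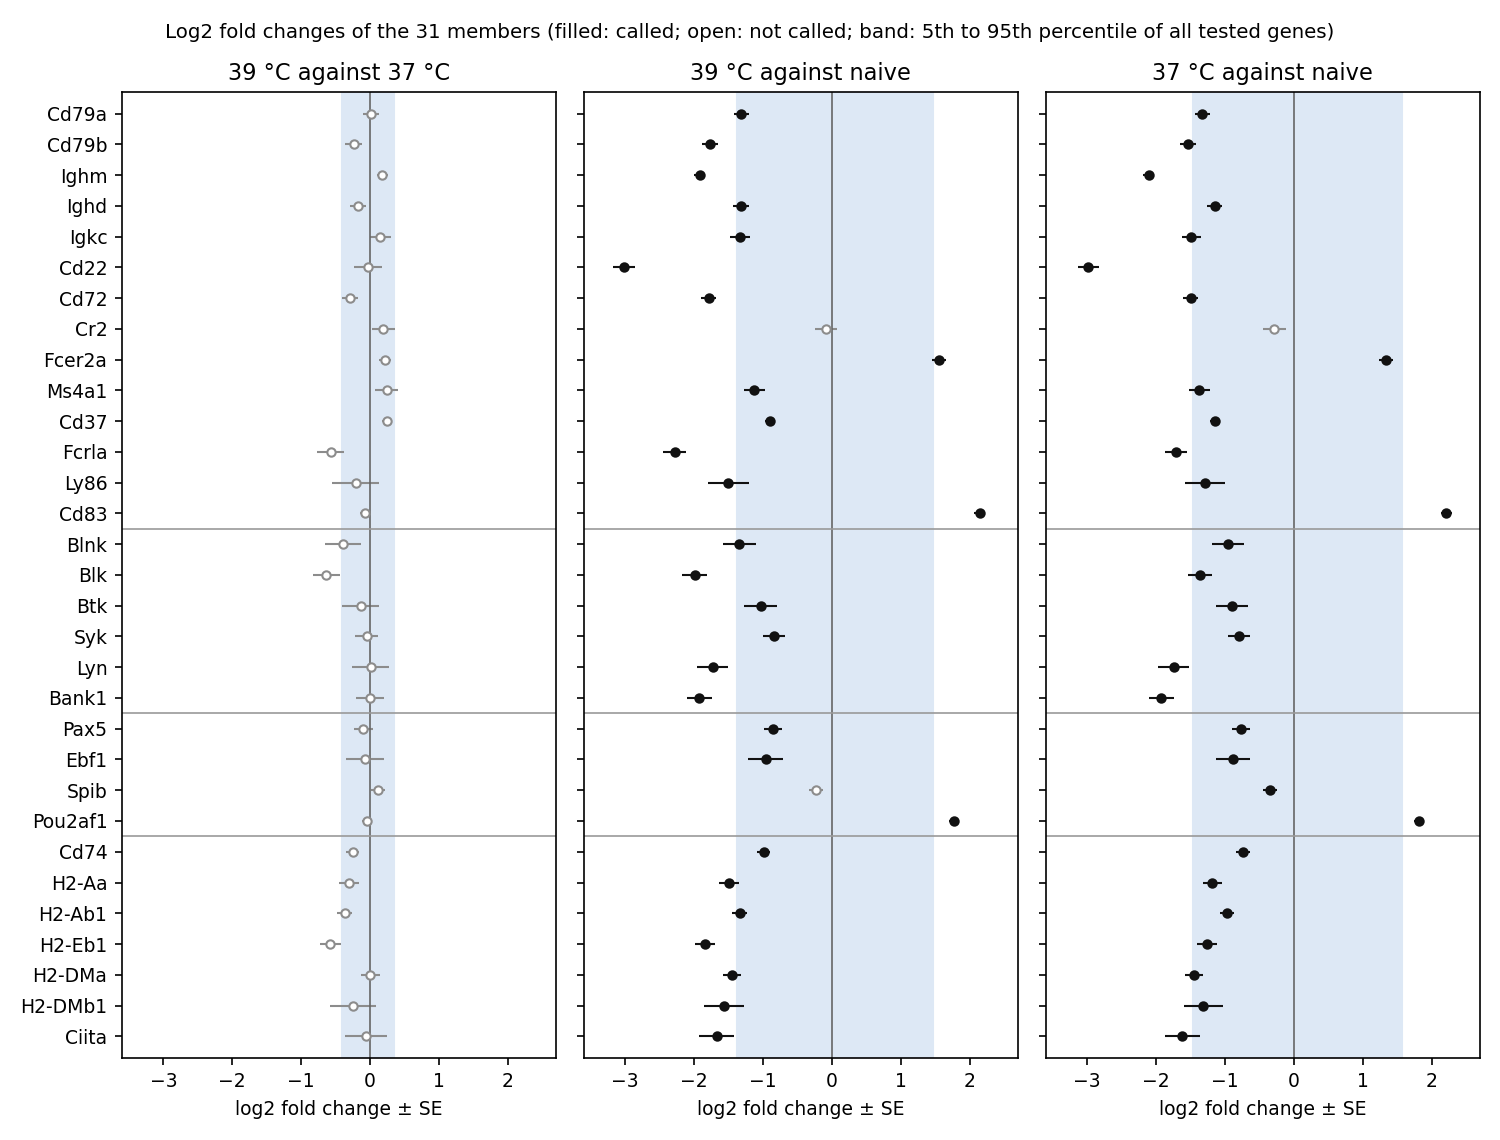
Log2 fold change ± SE of each of the 31 genes in the 3 comparisons, with filled points for adjusted p under 0.05 and a band for the central range (5th to 95th percentile) of all genes tested. Points are open throughout at 39 °C against 37 °C, and in the contrasts with naive cells, which share the naive libraries, most points are filled and left of 0 with Fcer2a, Cd83 and Pou2af1 on the right.

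Other genes of B cells, chosen like the members by name and with earlier results of these data known, were more mixed than the members. Of 29 tested, 19 were lower (65.5%) and 7 higher (24.1%) at 39 °C against naive, with the same counts at 37 °C. Of all genes 29.8% were lower and 29.2% higher at 39 °C, and 31.8% lower and 30.9% higher at 37 °C. Low genes such as Hhex, Cd180 and Iglc1 could be tested only through the naive libraries, so their lower calls were favoured in advance. The share that were lower thus depends in part on which genes could be tested. The share that were higher, 24.1%, was close to the background. Of the 19 lower at 37 °C, the 3 with the smallest adjusted p were the IgM Fc receptor gene Fcmr (log2 fold change -1.99 ± 0.18 at 39 °C and -2.33 ± 0.19 at 37 °C), the inhibitory lectin gene Siglecg (-2.89 ± 0.24 and -2.48 ± 0.23) and the adaptor gene Dapp1 (-0.88 ± 0.073 and -0.86 ± 0.073). Of the 7 higher at 37 °C, the 3 with the smallest adjusted p were the transcription factor gene Irf8 (2.27 ± 0.064 and 2.44 ± 0.064), Swap70 (1.47 ± 0.067 and 1.51 ± 0.067) and Cd24a (1.15 ± 0.11 and 1.80 ± 0.11).

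Cd24a, which encodes a small glycoprotein of B cells and many other cells, was the gene of this list called between the temperatures. It averaged 25.7 ± 1.6 CPM at 39 °C and 40.3 ± 3.9 CPM at 37 °C (SD, n = 3; log2 fold change -0.65 ± 0.10; edgeR adjusted p = 0.0128), beside 11.6 ± 1.5 CPM in naive cells. Leaving out any of 5 of the 6 activated libraries ended that call, with edgeR adjusted p of 0.0507 to 0.0928; they were all but the second library at 37 °C.

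Of 20 genes of antigen presentation outside the 31, 12 were lower (60%) and 5 higher (25%) at 39 °C against naive, with the same counts at 37 °C. Of all genes 29.8% were lower and 29.2% higher at 39 °C, and 31.8% and 30.9% at 37 °C. Cd40 is counted both here and among the other B cell genes. None of the 20 was called between 39 °C and 37 °C, and 1 (5%) had an unadjusted p under 0.05 in edgeR, against 7.96% of all genes. H2-Ob, a chain of the H2-DM inhibitor H2-O, fell by 1.25 ± 0.065 on the log2 scale at 39 °C and by 1.45 ± 0.066 at 37 °C. Ifi30, the thiol reductase GILT of the endosome, fell by 1.37 ± 0.15 and 1.47 ± 0.15. The 3 higher genes with the smallest adjusted p at 37 °C were the costimulatory genes Cd80 (1.61 ± 0.25 and 1.37 ± 0.26) and Cd40 (1.12 ± 0.25 and 0.99 ± 0.26), and Nfya, a subunit of the Y box factor (0.48 ± 0.069 and 0.58 ± 0.069).

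Most markers of other spleen cells that had enough counts moved with the members, and their part in these results was not tested. The 10 erythroid and platelet genes summed to 9.46 to 9.90 CPM at 39 °C, 9.15 to 9.65 CPM at 37 °C and 142 to 232 CPM in naive cells, led by the haemoglobin genes. Of the 6 tested, 5 were lower at 37 °C than in naive cells, against 31.8% of all genes. The 15 myeloid genes summed to 10.6 to 13.8 CPM at 39 °C, 10.6 to 13.2 CPM at 37 °C and 21.9 to 29.9 CPM in naive cells. In this list 4 genes were at 0 counts at 39 °C, 3 at 37 °C and 0 in naive cells. Of 7 tested, 4 were lower at 37 °C than in naive cells and 5 at 39 °C, against 31.8% and 29.8% of all genes. Lyz2, Itgam and Vcam1 could be tested only through the naive libraries, so their lower calls were favoured in advance. Cd68 made up most of the sum in every activated library and did not fall. It averaged 8.25 CPM at 39 °C and 7.28 CPM in naive cells. Its log2 fold change was 0.18 ± 0.19 at 39 °C and 0.17 ± 0.19 at 37 °C, not called in either contrast. Lyz2, lysozyme of myeloid cells, had 14 counts in all at 39 °C, 5 at 37 °C and 224 in naive cells. The neutrophil gene S100a9 had 2, 0 and 55 counts in the same groups.

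The 12 dendritic cell genes, which are the other professional users of class II, summed to 71.6 to 85.2 CPM at 39 °C, 77.6 to 89.0 CPM at 37 °C and 96.2 to 144 CPM in naive cells. Cst3 and Bst2 made up most of these sums, with 35.2 and 33.7 CPM at 39 °C and 46.0 and 64.6 CPM in naive cells. The Cst3 libraries overlapped between activated and naive cells. Of the 12 genes, 5 were without a count at 39 °C and at 37 °C, but had only 4 to 6 counts each over the 3 naive libraries. Of 6 tested, 5 were lower at 37 °C than in naive cells, against 31.8% of all genes. Among the 5, Itgax (CD11c, -2.39 ± 0.47) and Flt3 could be tested only through the naive libraries, which favoured their lower calls in advance. The sixth, the transcription factor gene Zbtb46, rose by 2.33 ± 0.21 on the log2 scale at 39 °C and by 2.06 ± 0.22 at 37 °C. Of 10 plasma cell genes 7 were tested, and 6 of them were lower at 37 °C, against 31.8% of all genes. Igha had 0.496 CPM at 39 °C, 0.411 CPM at 37 °C and 10.1 CPM in naive cells. Igha, Ighg1, Ighg2b, Ighg2c and Jchain could be tested only through the naive libraries, so their lower calls were favoured in advance. The seventh, Xbp1, a transcription factor gene of secretory cells, was higher at 39 °C (0.35 ± 0.092) and at 37 °C (0.31 ± 0.092) and, at 94.2, 91.4 and 73.9 CPM at 39 °C, at 37 °C and in naive cells, made up most of the list's summed level. Of 8 NK cell genes 5 were tested, with 5 lower at 37 °C and 4 at 39 °C, against 31.8% and 29.8% of all genes. The CD8 chain genes were lower in both tested. The 16 CD4+ T cell genes summed to 10326 CPM at 39 °C, 9947 CPM at 37 °C and 11175 CPM in naive cells. At 37 °C 8 of them were lower and 3 higher, against 31.8% and 30.9% of all genes, with a median log2 fold change of -0.25. At 37 °C against naive the median over tested genes was -1.26 for the 31 members, -0.91 for dendritic cell, -1.40 for myeloid and -1.49 for CD8 genes. It was -1.61 for NK cell, -3.20 for plasma cell and -5.98 for erythroid and platelet genes. These marker medians leave out untested genes such as Sdc1, with 0.581, 0.642 and 0.717 CPM at 39 °C, at 37 °C and in naive cells. They include genes such as Jchain (0.165 CPM at 37 °C, 2.76 CPM in naive cells), testable only through the naive libraries. Their size thus depends in part on which genes could be tested, and they are not a measure to set the members against.

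**Figure D4:**
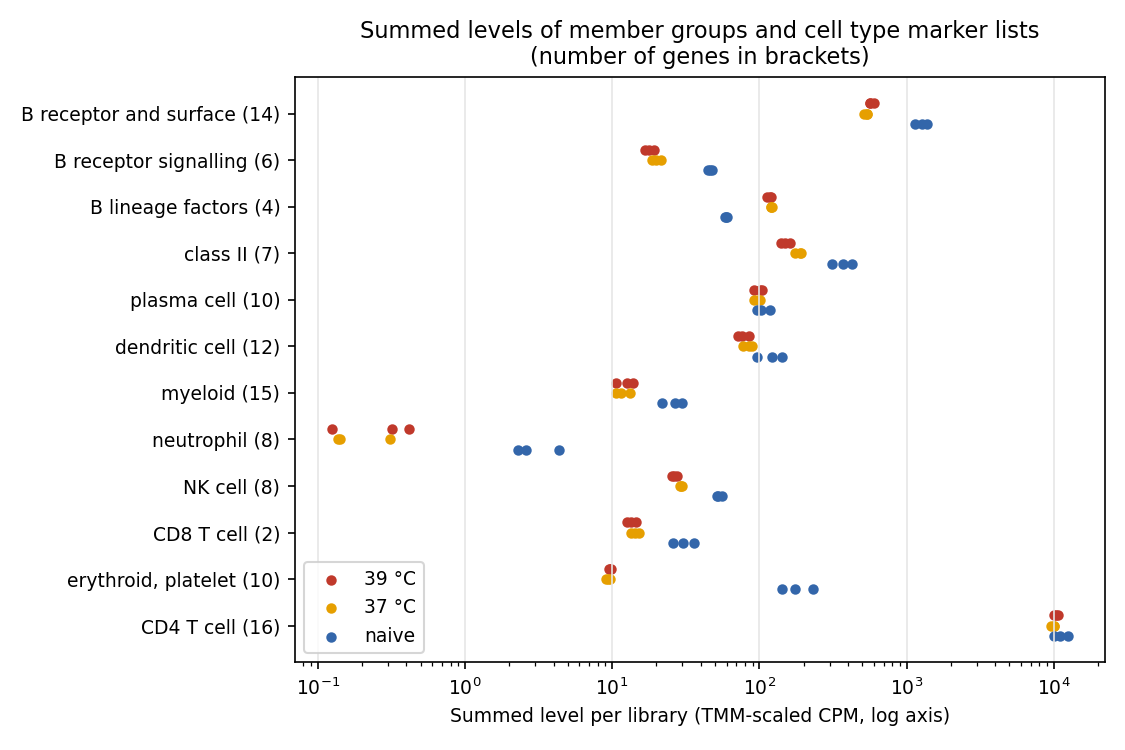
Summed level per library (TMM-scaled CPM, log axis) of the 4 groups of members and of 8 marker lists, with the number of genes in brackets and 1 point per library. Sums of the receptor, signalling and class II groups and of the myeloid, neutrophil, dendritic, NK, CD8 and erythroid lists are lower in all activated libraries than in all naive ones, while the lineage factor sum is higher and the plasma cell and CD4 T cell sums overlap.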

How the data were processed

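Each library was deposited by the authors as 1 table of raw counts of reads per Ensembl gene, not normalised. GRCm38 is the build in the submitters' processing notes, where FastQC, HISAT2, HTSeq and DESeq2 also appear, with no version or role, and per the labels RNA was prepared with TRIzol and a TruSeq RNA kit. The annotation release, the strand setting and the handling of reads shared between genes are not given in the sources used here. Of 55573 identifiers, 55480 matched GENCODE M21, which supplied symbols, coordinates and exon lengths.

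Genes that passed edgeR's expression filter (count of 10, total of 15) were scaled by TMM and fitted in 1 model of all 9 libraries with edgeR 4.0.16 (R 4.3.3), using 2-sided quasi-likelihood F tests adjusted by Benjamini-Hochberg over 13328 genes, with 0.05 as threshold. The 31 members and all other lists were chosen with earlier results of these data known. All members are named, and of each other list up to 3 called genes per direction at 37 °C against naive, with any called between the temperatures, were eligible for naming. Some others are named where they made up much of a summed level or limit what a list shows. The fit was tested on simulated data for 39 °C against 37 °C, where the share called was 50 of 50 genes at 4-fold higher, 43 of 50 at 2-fold higher, 35 of 50 at 1.5-fold higher and 44 of 50 at 0.25-fold, among 13089 genes. Alternatives were other scalings, any count, DESeq2 1.42.0, a replicate block, the 6 libraries of a comparison alone and leaving out each library.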

Additional observations from a re-analysis of the deposited data

How the results depend on the processing

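The contrasts with naive cells had 26 to 28 members lower and 3 higher at 37 °C, and 26 or 27 lower and 3 higher at 39 °C, when each library was left out. Over all genes the leave-outs gave 3806 to 4422 lower and 3723 to 4338 higher at 37 °C, and 3519 to 4142 lower and 3539 to 4219 higher at 39 °C. At 39 °C against 37 °C they gave 0 to 1 member lower, 0 to 1 higher, and 30 to 202 of all genes lower and 7 to 89 higher. In that comparison 1 member, H2-Eb1, was called lower with any count (log2 fold change -0.57, edgeR adjusted p = 0.000138) and with DESeq2 (adjusted p = 0.0465). With the 6 libraries alone 3 members were lower (H2-Eb1, H2-Ab1 and Cd74) and 1 was higher (Cd37). Over all genes there were then 265 lower and 136 higher, with any count 133 lower and 43 higher, and with DESeq2 38 higher. The cause was not tested. No called value changed sign. Whether libraries with the same replicate number are paired is not given. Their deviations from the group means correlated at -0.17 to 0.33, which cannot decide it with 3 libraries per group. With a replicate block 1 member, H2-Eb1, was lower at 39 °C against 37 °C (-0.59, edgeR adjusted p = 0.0254). The counts against naive were then 26 lower and 3 higher at 39 °C and 27 lower and 3 higher at 37 °C, as without the block. Depth limits the low members: H2-DMb1, at about 1 CPM in activated cells, had a standard error of 0.34 log2 units between the temperatures, more than its difference of -0.25.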
